A study of Mus musculus with 4 samples.

Results

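The 22 genes described here were near silent in the retina of wild-type mouse embryos and measurable in the libraries labelled Foxn3KO, and their symbols fall outside the large named families of cilia genes. They were selected from a table of 18471 genes by measured level in FPKM, which scales a gene's fragments by transcript length and sequencing depth. Both wild-type libraries had to be under 0.15 FPKM and both Foxn3KO libraries at 0.4 FPKM or more. These limits were met by 41 genes, of which 19 were set aside because their symbols start with Cfap, Dnah, Dnai, Dnaaf, Odad, Drc, Rsph, Tekt, Cry, Ccdc, Ttc, Wdr, Lrrc, Armc, Efcab, Spata, Spag or Tex, or end in Rik. Because the difference between the groups chose the 22 genes, that difference is given below as a description and carries no test.

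Retinal RNA was sequenced from mouse embryos of embryonic day 19, with 2 libraries labelled wild-type and 2 labelled Foxn3KO. The knockout embryos have the genotype Foxn3-/- on the line C57BL/6NJ-Foxn3em1(IMPC)Bay/Mmnc, in which Foxn3, a gene for a transcription factor of the forkhead class, lacks exon 3 in every cell of the embryo. The background strain of the wild-type embryos is not given in the sources used here. Each library came from the retinal RNA of an individual embryo, so n = 2 in each group. Libraries held 22543531 to 29360129 counts, and 3 counts in a library correspond to 0.102 to 0.133 CPM (counts scaled to library size).

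Facts about the libraries bear on the values below. Foxn3 itself was at 8.45 and 8.65 FPKM in the wild-type libraries and at 12.4 and 12.5 FPKM in those labelled Foxn3KO. The targeted gene was thus higher in the knockout group, and counts per gene do not resolve exon 3, so directions below rest on the labels. Wild-type replicate 1 stood apart: it had 83073 counts of Xist, the RNA of the inactive X chromosome, while the other wild-type library had 17 and the Foxn3KO libraries 19 and 9. It also had 0 counts of the Y-linked gene Ddx3y, against 2203, 2317 and 1780 in the same order. These markers of sex are therefore not balanced between the groups. Without this library, the median log2 fold change of the 22 genes was 3.79, against 3.64 with it. Over genes with enough counts, the wild-type libraries differed more from each other than the Foxn3KO libraries did. The mean chi-square per gene, which sets the difference in counts against counting error, was 9.47 within wild-type and 1.85 within Foxn3KO. Photoreceptor, neuron and glia markers of the retina were present in all 4 libraries, with all 24 listed genes in the table and a summed level of 1604 to 1642 FPKM.

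As background, motile cilia beat by means of an axoneme, a ring of doublet microtubules around a central pair, with dynein motors, nexin links, radial spokes and central-pair projections. Foxj1 and the RFX factors are transcription factors that switch on genes for building such cilia, and RFX factors bind a promoter element called the X-box. Cells of the retina carry primary cilia, and the outer segment of a photoreceptor is a modified one. Many genes of motile cilia are also transcribed in testis, where they serve the sperm tail. Foxj1 was at 2.92 and 3.16 FPKM in the wild-type libraries and at 67.3 and 66.4 FPKM in the Foxn3KO libraries.

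Promoter sequence was available for 17 of the 22 genes (77.3%) in the RefSeq table of build GRCm38.p6, which holds 250 bases before and 50 after each start. Ankfn1, Arsi, Gm36033, Gm4876 and Tcte1 had no entry. Since fewer than 80% were matched, the check is void for the group as a whole and the shares describe the matched genes. Motifs were searched on both strands. The X-box arm GTTGCC was in 8 of the 17 windows (47.1%), in 6 of 13 windows (46.2%) of the genes set aside by name, and in 1857 of 12455 windows (14.9%) of all genes of the table. In the bases before the start alone it was in 6 of the 17 windows (35.3%, all genes 12.5%), and in a shorter window around the start in 4 (23.5%, all genes 8.64%). The 8 genes were Adgb, Ak9, Dynlt5, Hydin, Myof, Nek5, Spef2 and Xrra1. The windows printed next show where that arm lies relative to the start. Over the whole window, its share stood farthest, in percentage points, from the share over all genes among the motifs searched. In the shorter window it did not. They are the bases before the start, 5′ to 3′ on the strand of the gene, with the arm (GTTGCC, or GGCAAC where it lies on the other strand) in capitals.
Hydin, chr8:110266727-110266976, plus strand: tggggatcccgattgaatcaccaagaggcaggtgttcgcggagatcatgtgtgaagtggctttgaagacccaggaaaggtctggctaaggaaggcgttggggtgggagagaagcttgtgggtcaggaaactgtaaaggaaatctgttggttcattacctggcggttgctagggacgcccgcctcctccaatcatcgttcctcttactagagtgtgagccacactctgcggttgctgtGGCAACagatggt
Adgb, chr10:10472400-10472649, minus strand: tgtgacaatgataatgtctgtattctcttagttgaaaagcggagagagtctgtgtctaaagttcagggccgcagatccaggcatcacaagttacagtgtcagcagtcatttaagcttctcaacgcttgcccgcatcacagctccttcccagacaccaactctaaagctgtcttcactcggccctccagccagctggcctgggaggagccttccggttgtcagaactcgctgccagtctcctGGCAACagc
Dynlt5, chr4:102978453-102978702, plus strand: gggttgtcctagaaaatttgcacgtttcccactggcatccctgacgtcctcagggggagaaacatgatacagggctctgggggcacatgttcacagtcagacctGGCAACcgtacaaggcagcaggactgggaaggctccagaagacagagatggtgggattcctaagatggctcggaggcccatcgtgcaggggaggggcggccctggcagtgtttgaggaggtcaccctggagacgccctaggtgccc
Myof, chr19:38043578-38043827, minus strand: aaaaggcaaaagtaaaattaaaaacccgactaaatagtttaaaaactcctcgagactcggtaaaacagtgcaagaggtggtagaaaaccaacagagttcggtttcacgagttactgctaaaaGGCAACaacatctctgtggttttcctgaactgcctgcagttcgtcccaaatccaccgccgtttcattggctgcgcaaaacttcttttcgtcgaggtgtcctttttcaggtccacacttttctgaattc
Nek5, chr8:22125068-22125317, minus strand: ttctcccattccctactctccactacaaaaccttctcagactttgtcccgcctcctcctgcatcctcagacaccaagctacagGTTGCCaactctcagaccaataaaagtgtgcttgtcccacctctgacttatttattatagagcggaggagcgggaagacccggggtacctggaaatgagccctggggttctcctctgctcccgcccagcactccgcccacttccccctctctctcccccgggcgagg
Xrra1, chr7:99858968-99859217, plus strand: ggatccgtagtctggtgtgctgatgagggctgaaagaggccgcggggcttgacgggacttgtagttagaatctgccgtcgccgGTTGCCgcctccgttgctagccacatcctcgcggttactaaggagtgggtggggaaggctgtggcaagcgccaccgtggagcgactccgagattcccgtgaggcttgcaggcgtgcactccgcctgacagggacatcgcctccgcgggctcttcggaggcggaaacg

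Counting the base directly before the start as -1, the first base of the arm was at -13 in Hydin and -9 in Adgb, and at -128 in Myof, -146 in Dynlt5 and -167 in both Nek5 and Xrra1. In Spef2 the arm began at base 9 after the start. A fuller element, GTTNCC followed 0 to 3 bases on by GGNAAC, overlaps the arm and was in 1 of the 17 windows (5.88%), that of Ak9, against 129 of 12455 (1.04%). The stretch of Ak9 that holds it, with the element in capitals, spans the start on the plus strand.
Ak9: ccacagGTTTCCAAGGCAACcgccta

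Over the whole window, the other motifs had shares nearer, in percentage points, to those of all genes. The forkhead motif GTAAACA was in 0 of the 17 windows, against 380 of 12455 (3.05%). The forkhead-like letters GACGC were in 10 of 17 (58.8%) against 48.6%, but in the bases before the start alone in 6 of 17 (35.3%) against 41.2%. In the shorter window around the start they were in 9 of 17 (52.9%) against 34.8%. Over the whole window, the E-box CACGTG was in 2 of 17 (11.8%) against 11.2%, and the CCAAT box CCAAT in 6 of 17 (35.3%) against 42.7%. In the shorter window the CCAAT box was in 2 of 17 (11.8%) against 28.9%. There, GACGC and the CCAAT box stood farther from all genes than the X-box arm (23.5% against 8.64%). A match is a description of letters, not of a bound site, and a missing match says only that these letters are not in the window.

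Among the genes for parts of the axoneme, Spef2, whose protein belongs to the central apparatus, had the highest level of the group. It was at 0.146 and 0.0666 FPKM in the wild-type libraries and at 3.99 and 4.15 FPKM in the Foxn3KO libraries, from 36, 18, 1155 and 924 counts. Both Foxn3KO values lay above both wild-type values, as the limits require. The ratio of the summed, TMM-normalised counts was 38.8 (95% interval 29.6 to 51.9), or 60.9 against wild-type replicate 2 alone. Intervals of such ratios cover counting error only, not the spread between embryos. Hydin, which forms a projection of the central pair, was at 0.0623 and 0.0366 FPKM against 0.674 and 0.706 FPKM, a ratio of 14.1 (10.4 to 19.4). Hydin is a very long gene, so its 355 and 286 counts in the Foxn3KO libraries correspond to a low level per length.

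Tcte1, a component of the nexin-dynein regulatory complex, was at 0.0131 and 0.0716 FPKM in the wild-type libraries, from 1 and 6 counts, and at 2.57 and 2.43 FPKM in the Foxn3KO libraries, from 231 and 168 counts. Its ratio of 57.5 has a wide interval, 27.6 to 144, because of the few wild-type counts, and it was 192 against wild-type replicate 1 alone and 35.1 against wild-type replicate 2 alone. Dynlt5, of the Tctex family of dynein light chains, was at 0.0687 and 0.0628 FPKM against 1.58 and 1.60 FPKM, a ratio of 24.2 (12.9 to 51.1). In neither gene did the groups overlap, as the limits require. The Foxn3KO libraries differed from each other by 1.06 times in Tcte1 and 1.01 times in Dynlt5.

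A further set is made up of genes known from motile ciliated cells or sperm whose proteins are enzymes or have less defined places. Nek5, a kinase of the NIMA-related family, was at 0.0416 and 0.127 FPKM in the wild-type libraries and at 2.79 and 3.50 FPKM in the Foxn3KO libraries, a ratio of 36 (20.8 to 68.1), or 74.5 against wild-type replicate 1 alone. It had the largest difference between the Foxn3KO libraries of the 22 genes, 1.26 times. Ak9, an adenylate kinase, was at 0.00576 and 0.0474 FPKM, from 1 and 9 counts, against 0.953 and 0.895 FPKM, a ratio of 33.7 (18.1 to 70.9). Its wild-type libraries differed 8.23 times, the most in the group, and the ratio was 161 against wild-type replicate 1 alone and 19.6 against wild-type replicate 2 alone. Adgb, which encodes androglobin, a large protein with a globin fold, was at 0.065 and 0.0475 FPKM against 1.54 and 1.36 FPKM, a ratio of 26.1 (16.3 to 44.5).

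The widest gap of the group was in Vwa3a, which encodes a protein with von Willebrand factor A domains. It was at 0.0167 and 0.0458 FPKM in the wild-type libraries, from 3 and 9 counts, and at 3.41 and 3.12 FPKM in the Foxn3KO libraries, from 718 and 505 counts. The ratio was 103 (58.6 to 200), with 196 against wild-type replicate 1 alone and 71.7 against wild-type replicate 2 alone. Vwa5b1, with a domain of the same kind, was at 0.0257 and 0.0235 FPKM against 1.04 and 1.08 FPKM, a ratio of 43.1 (23.2 to 90.5). Dpy19l2, needed to attach the acrosome to the nucleus of the sperm, was at 0.035 and 0.128 FPKM against 0.935 and 0.828 FPKM, and Ppp1r36, a regulatory subunit of protein phosphatase, at 0.036 and 0.0548 FPKM against 0.747 and 0.838 FPKM. Their ratios were 10.6 (6.25 to 19.4) and 17.1 (8.46 to 40.5), and in both the wild-type values were the less even ones. For Dpy19l2 the ratio was 25.4 against wild-type replicate 1 alone and 6.94 against wild-type replicate 2 alone.

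Genes for proteins of the membrane or of secretory compartments had Foxn3KO means from 0.419 FPKM (Hhatl) to 1.89 FPKM (Arsi). Arsi, an arylsulfatase, was at 0.135 and 0.111 FPKM in the wild-type libraries and at 1.90 and 1.89 FPKM in the Foxn3KO libraries, a ratio of 15.5 (9.72 to 26). P2rx6, a subunit of ATP-gated channels, was at 0.0804 and 0.0735 FPKM against 0.84 and 0.825 FPKM, a ratio of 10.8 (6.49 to 19.4). Myof, a membrane protein of the ferlin family, was at 0.105 and 0.122 FPKM against 0.701 and 0.689 FPKM, a ratio of 6.09 (4.76 to 7.89). Myof had the most wild-type counts of the 22 genes, 33 and 42, so its ratio has a narrow counting interval. Hhatl, a relative of the Hedgehog acyltransferase, had the lowest ratio, 3.83 (2.14 to 7.29), with 0.122 and 0.0978 FPKM against 0.431 and 0.407 FPKM.

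The remaining genes included 4 entries with only a predicted-gene name. Xrra1, which encodes a leucine-rich repeat protein, was at 0.128 and 0.0667 FPKM in the wild-type libraries against 0.537 and 0.648 FPKM, and Ankfn1, with ankyrin repeats and a fibronectin domain, at 0.0787 and 0.116 against 0.465 and 0.491 FPKM. Fam90a1b was at 0.0797 and 0.109 FPKM against 0.521 and 0.619 FPKM. Of the predicted genes, Gm12296 was the highest, at 0.1496 and 0.103 FPKM against 1.52 and 1.29 FPKM. Gm16853, Gm36033 and Gm4876 lay between 0.456 and 0.586 FPKM in the Foxn3KO libraries, on 25 to 52 counts each. The groups did not overlap in any of these genes, as the limits require, but their ratios of 4.13 to 11.3 were below the 14.1 of Hydin, the lowest of the axoneme genes above.

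**Figure D1:**
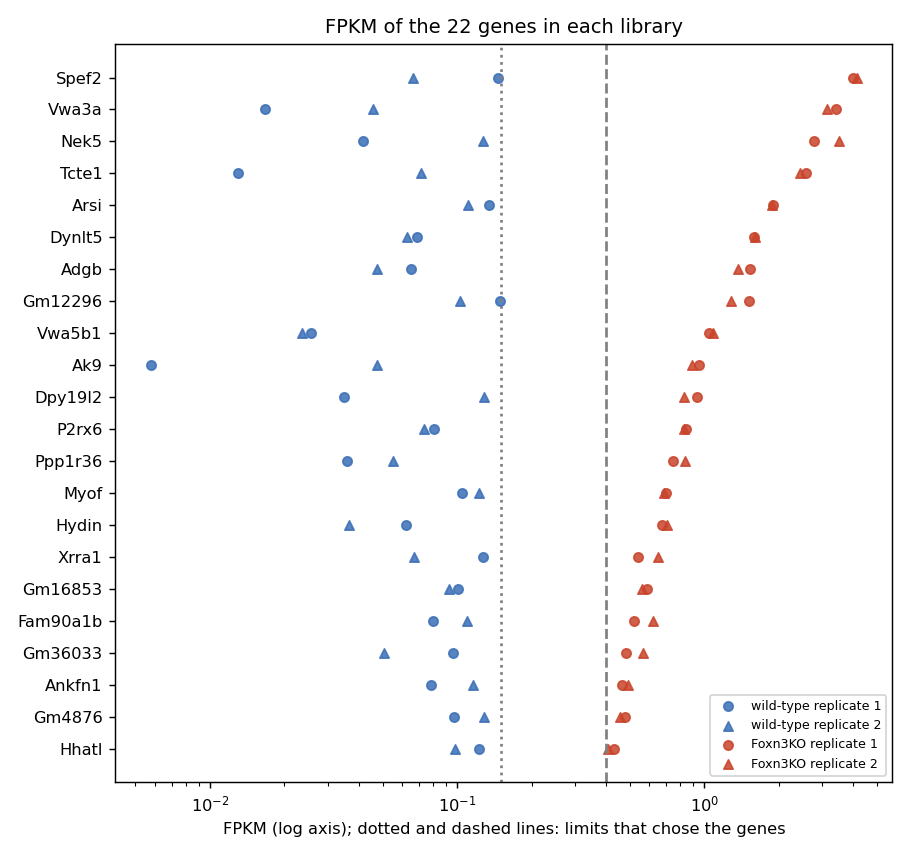
FPKM (log axis) of each of the 22 genes in the 4 libraries, sorted by the mean of the Foxn3KO libraries, with the lower limit of 0.15 dotted and the upper limit of 0.4 dashed. Points of the Foxn3KO libraries lie close together in each gene, from Spef2 at 3.99 and 4.15 down to Hhatl at 0.431 and 0.407, while the wild-type points scatter more.

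As a group, the 22 genes were at low levels even where they were higher. Their mean in the Foxn3KO libraries ran from 0.419 to 4.07 FPKM with a median of 0.857, and 13 were under 1 FPKM. All 22 were under the median of the table in the same libraries, 4.58 FPKM. Summed over the genes, the level was 1.69 and 1.78 FPKM in the wild-type libraries and 28.7 and 29 FPKM in the Foxn3KO libraries. The Foxn3KO libraries differed from each other by a median of 1.06 times per gene. Wild-type values rested on 1 to 42 counts per gene and library, and no gene was at 0 in both, so "silent" means a low level and not the absence of RNA. In 10 of the 22 genes the CPM was higher in wild-type replicate 2 than in wild-type replicate 1. In bulk tissue, fewer cells that express a gene and less RNA per cell cannot be told apart.

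The genes set aside by name met the same limits and reached higher levels. Their mean in the Foxn3KO libraries ran from 0.483 to 15.6 FPKM with a median of 1.62, and 13 of 19 were under the median of the table. Their median log2 fold change was 5.38, against 3.64 (1.92 to 6.65) in the 22 genes. Both medians come from genes selected for this difference and are compared without a test.

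The limits were met in 1 direction far more often than in the other. The smallest count of any gene of the table, summed over the 4 libraries, was 16, so the shares below leave out genes with less. Of 930 genes under 0.15 FPKM in both wild-type libraries, 41 (4.41%) were at 0.4 FPKM or more in both Foxn3KO libraries, 608 (65.4%) were under 0.15 FPKM there too, and 281 (30.2%) lay between. Of 849 genes under 0.15 FPKM in both Foxn3KO libraries, 2 (0.236%) were at 0.4 FPKM or more in both wild-type libraries. These were Htr3a, a serotonin-gated channel subunit, at 0.462 and 0.44 FPKM in the wild-type libraries against 0.0658 and 0.1497 FPKM, and the predicted gene Gm37960, at 0.465 and 0.542 against 0.144 and 0.117 FPKM.

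**Figure D2:**
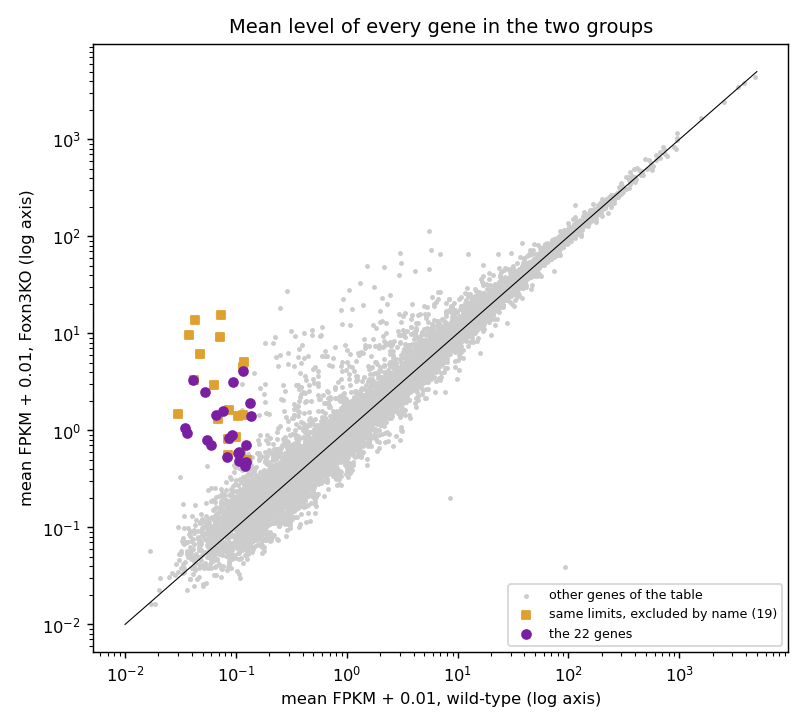
Mean FPKM plus 0.01 of every gene of the table in the wild-type (horizontal) and Foxn3KO (vertical) libraries, both axes log, with the line of equal levels. The 22 genes and the 19 set aside by name fill the same corner at low wild-type levels, the 22 reaching 4.07 FPKM and the 19 reaching 15.6 FPKM.

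The limits cut through a continuous range. Just inside the lower limit were Gm12296, Spef2 and Arsi, with highest wild-type values of 0.1496, 0.1457 and 0.1349 FPKM. Just outside it were Efhb, Stk26 and Nek11, at 0.159, 0.1599 and 0.1701 FPKM. Just inside the upper limit were Hhatl, Gm4876 and Ankfn1, with lowest Foxn3KO values of 0.4071, 0.4555 and 0.4651 FPKM, and just outside it Deup1, Msx1 and Sox1ot, at 0.393, 0.387 and 0.3554 FPKM.

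Other genes of motile cilia were compared through lists by role, with the 22 genes left out of the counts and 8 of the 22 standing in a list. These lists were chosen with earlier results of these data known, so their counts describe and are not independent of the data. The table held 17 of 26 dynein and radial spoke entries and 11 of 13 central apparatus entries, counted with the 22 genes. It held 20 of 32 entries for proteins inside the doublet microtubules and 50 of 81 of the broader list. Entries not in the table have no value here. Over all 17300 genes tested with edgeR's quasi-likelihood test at an adjusted p of 0.05, 12.3% were higher and 9.66% lower in the Foxn3KO libraries, and the median log2 fold change was -0.00. Of the dynein and radial spoke genes, 13 of 14 tested rose and 0 fell, with a median log2 fold change of 2.10; the remaining gene, the assembly factor Pih1d1, had 0.02. Of the central apparatus genes, 9 of 9 rose, with a median of 2.23. They included the kinesin gene Kif9, from 0.495 and 0.649 to 9.54 and 9.59 FPKM (log2 fold change 4.05, SE 0.110, edgeR adjusted p = 8.25e-15), and the adenylate kinase gene Ak7, from 0.219 and 0.192 to 8.49 and 7.46 FPKM (5.27). Spef1, a microtubule-binding protein of the central pair, was already at 23.3 and 24.4 FPKM in the wild-type libraries and had the smaller log2 fold change of 0.51.

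Genes for proteins inside the doublet microtubules rose in 15 of 18 tested cases and fell in 0, with a median log2 fold change of 2.02. Saxo4 went from 0.194 and 0.289 to 18.9 and 17.3 FPKM, and Enkur from 2.13 and 2.14 to 49.4 and 46.8 FPKM. Of the broader list of genes of motile ciliated cells, 39 of 46 rose and 1, Abhd1, fell (log2 fold change -0.84, edgeR adjusted p = 0.0119), with a median of 1.47. Kif27, a kinesin gene, rose by 4.30 on the log2 scale, and Nek11, a kinase gene just outside the lower limit, by 4.15.

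The list of multiciliated fate and centriole amplification was the least uniform. Of its 16 entries, 12 were in the table. Mcidas, Gmnc, Cdc20b, Kncn and Cby2 were either not in the table or not tested. Of the 11 tested genes, 6 rose and 0 fell, with a median log2 fold change of 0.40. Foxj1 had 4.45 and the cyclin gene Ccno 3.14, while Rfx2 and Rfx3 had 1.41 and 0.40. Deup1, a component of the deuterosome on which centrioles multiply, was at 0.145 and 0.111 FPKM against 0.393 and 0.471 FPKM (log2 fold change 1.73, edgeR adjusted p = 0.00353). E2f4, E2f5, Foxn4, Myb and Trp73 did not pass the test.

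**Figure D3:**
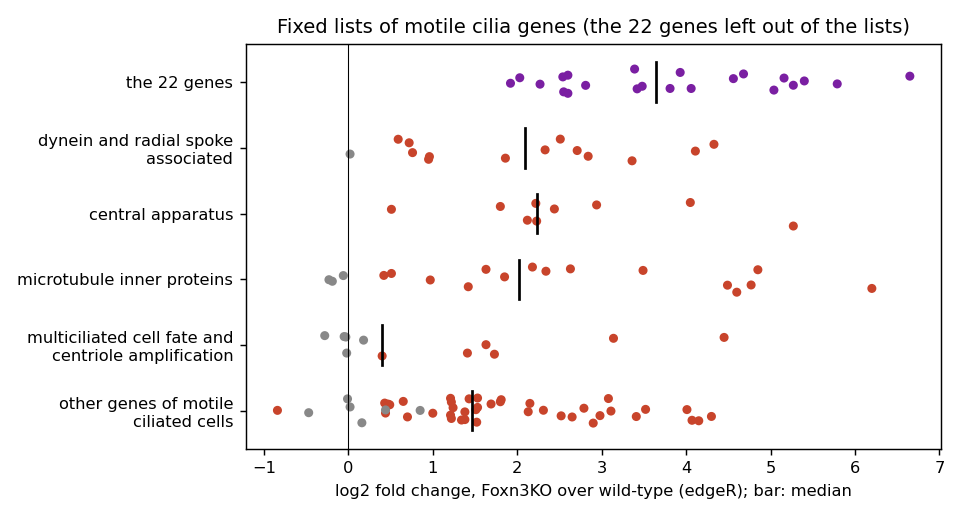
Log2 fold change (Foxn3KO over wild-type, edgeR) of each tested gene in 5 lists of motile cilia genes and of the 22 genes, with a bar at each median. Red points passed the test and grey points did not. The 22 genes (purple) were in the fit, but no test result is shown because this difference selected them. List medians run from 0.40 for multiciliated fate to 2.23 for the central apparatus, and the 22 selected genes have 3.64.

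Markers of other cell types that an eye dissection or a motile cilia signal could bring were measured beside the 22 genes. Lens markers moved with the groups and with the library: their sum was 4.33 and 48.7 FPKM in the wild-type libraries and 178 and 179 FPKM in the Foxn3KO libraries, and 11 of 12 tested were higher in edgeR (4 in DESeq2). The wild-type libraries thus differed widely in lens markers, while the sums of the 22 genes were 1.69 and 1.78 FPKM in the same libraries. The part of lens RNA in the levels of the 22 genes was not tested. Pigment epithelium markers were at 33.2 and 44.1 FPKM against 26.3 and 27.3 FPKM, with 4 of 9 tested lower (Pmel, Rlbp1, Ttr and Tyr).

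Markers of tissues that carry motile cilia or a sperm tail were low. Choroid plexus markers summed to 7.28 and 9.39 FPKM in the wild-type and 9.29 and 9.07 FPKM in the Foxn3KO libraries; Aqp1, Folr1 and Msx1 were higher and Clic6 and Ttr lower. Germ cell markers, of which 4 of 15 were in the table, summed to 2.23 and 2.58 against 3.67 and 3.14 FPKM. Of 14 airway markers 1 was in the table, at 5.95 and 5.25 against 6.07 and 5.9 FPKM. Markers of vessels and mesenchyme summed to between 54.7 and 57.7 FPKM in all 4 libraries, mostly from Kdr and Cldn5. Kdr alone was at 39.5 and 41.2 FPKM against 39.1 and 38.4 FPKM, so the sum says little about the other genes of the list. Among these markers, the endothelial genes Pecam1 (log2 fold change 1.07, edgeR adjusted p = 0.015) and Tek (1.75, edgeR adjusted p = 0.0166) were higher. Both were under 0.4 FPKM and neither was called by DESeq2. Microglia markers were at 12.4 and 12.3 against 15.3 and 15.2 FPKM. The part of these cell types in the result was not tested.

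**Figure D4:**
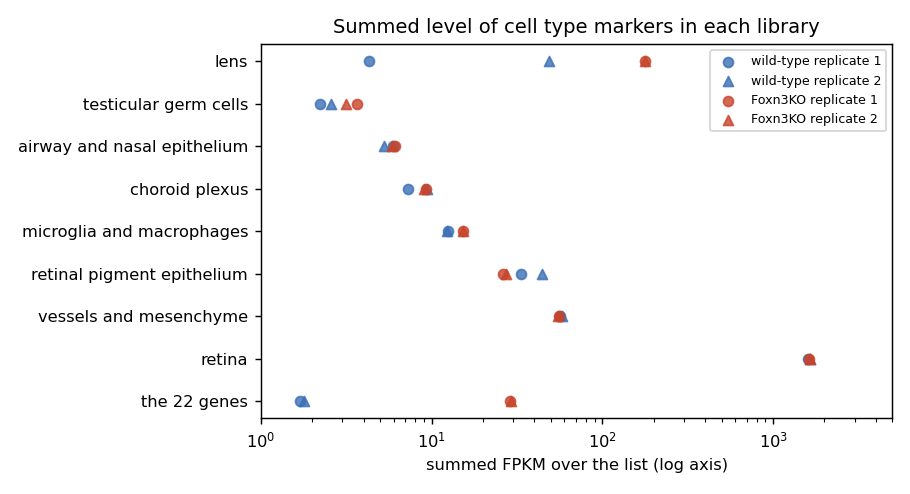
Summed FPKM (log axis) of 8 marker lists and of the 22 genes in each library. The sums of the 22 genes separate by group (1.69 and 1.78 against 28.7 and 29), the lens sums separate by group and between the wild-type libraries (4.33 and 48.7), and the retina sums lie at 1604 to 1642 in all libraries.

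Neighbouring genes were examined because reads of an adjacent or overlapping gene can be counted in a weakly transcribed one. Positions came from GENCODE M21 on another build than the mm39 named in the submitters' processing notes, so names are given without distances. Of 52 tested genes that overlap or adjoin 1 of the 22, 12 (23.1%) were higher and 5 lower, beside the 12.3% higher of all tested genes. A higher neighbour was found for 10 of the 22 genes: Ak9, Arsi, Dynlt5, Gm12296, Gm16853, Hhatl, Hydin, P2rx6, Ppp1r36 and Vwa5b1. The neighbours above 2-fold were Dnah9, Ubxn10, Ccdc13, Dnai4 and Camk2a. Gm12296 overlaps the dynein heavy chain gene Dnah9 on the opposite strand, which went from 0.184 and 0.163 to 2.98 and 3.03 FPKM. Hhatl lies downstream of Ccdc13 on the same strand (1.88 and 2.11 to 13.7 and 12.4 FPKM), and Vwa5b1 downstream of Ubxn10 on the same strand (0.756 and 0.804 to 7.59 and 7.05 FPKM). Dynlt5 adjoins the dynein intermediate chain gene Dnai4 (log2 fold change 1.74), and Arsi lies upstream of Camk2a (1.41).

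Overlap with a gene of the table was found for 7 of the 22: Dynlt5, Gm12296, Gm16853, Gm4876, P2rx6, Tcte1 and Xrra1. The library kit keeps strand, but its use in counting is not given in the sources used here, so reads of overlapping genes cannot be told apart. The 3 most abundant genes were not among the 10 with a higher neighbour. Next to Spef2, Lmbrd2 fell by 0.28 on the log2 scale, next to Vwa3a, Mosmo fell by 0.19, and next to Nek5, Alg11 fell by 0.17. The neighbours on the other side, Dnajc21, Eef2k and Nek3 in the same order, had log2 fold changes of 0.13, 0.15 and 0.08 and did not pass the test. Mosmo and Alg11 passed the edgeR threshold but not that of DESeq2. Reads shared with a neighbour were not tested.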

How the data were processed

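Total RNA of individual retinas was sequenced in 2 wild-type and 2 Foxn3KO libraries per the labels' protocols, which name a directional library kit and adaptors with molecular identifiers. The authors deposited 1 table with raw counts per gene, from 22543531 to 29360129 per library. FPKM per gene and library is the authors' own value, per the file headers. The deposited mean signal per gene, log2 fold change with its standard error, and p-values were read but not used for any value. Aligner, counter, annotation and the use of strand or identifiers are not given in the sources used here; the submitters' processing notes name DESeq2 and mm39.

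The members and lists were chosen with earlier results of these data known. Genes were selected on FPKM, and all members are named. Counts were filtered with filterByExpr (17300 genes), scaled by TMM and tested two-sided by the quasi-likelihood method of edgeR 4.0.16 (R 4.3.3), with genotype as the term and Benjamini-Hochberg adjustment. The fit was also run on simulated counts with the same dispersion for every gene and both groups. That run does not cover the unequal spread within the real groups. Alternatives used limma 3.58.1 and DESeq2 1.42.0. Ratios of summed counts have exact 95% binomial intervals, which cover counting error only.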

Additional observations from a re-analysis of the deposited data

How the results depend on the processing

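The number of selected genes, 22 at the stated limits, depends on them: it was 10 with wild-type levels under 0.1 FPKM, and 25 to 54 with 1 library left out. Without wild-type replicate 1, the library that stood apart in Xist, it was 43. Log2 fold changes of the 22 genes depended on single wild-type libraries: leaving 1 out moved 18 of 44 values, in 10 genes, by more than their standard error (Ak9, 5.04, became 4.27 or 7.16, depending on which was dropped), while scaling, prior count, block or leaving out a Foxn3KO library did so for 0 of 154. Signs are fixed by the selection. Genes called over the whole table numbered 3795 with edgeR and 2437 with DESeq2, and 2323 to 5067 with 1 library left out, where the lone library is assumed to vary like the other group. With the 250 bases before the start alone, the share of windows with the fuller X-box element was 0. With a shorter window around the start the CCAAT share was 11.8%. Over the whole window, before the start and around it, the X-box arm share was 47.1%, 35.3% and 23.5% (all genes 14.9%, 12.5% and 8.64%). The GACGC share was 58.8%, 35.3% and 52.9% in the same order (all genes 48.6%, 41.2% and 34.8%). Lens markers called numbered 11 with edgeR and 4 with DESeq2. Replicate numbers do not pair the libraries (correlation of deviations -0.00825 over 17300 genes); a fit with the replicate block called 4222 genes. With 2 embryos a group, embryo and genotype effects are separated only by this spread, and 4 of the 22 genes had at least 10 counts in every library.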
